A study of Homo sapiens with 10 samples.

Results

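KLF7 (Krüppel-like factor 7) is described here in mutant and wild-type lines derived from the established colorectal carcinoma cell line HCT116. It was measured by 1 probe set, 16907623, of 53617 on the array, the only one of 16098 named probe sets that the probe annotation pairs with KLF7. The 4 mutant lines are ORC1B14 and ORC1BP32, labelled as ORC1 mutants, and ORC2B2 and ORC2BP8, labelled as ORC2 mutants. The fifth line, WT, is labelled wild type. ORC1 and ORC2 encode subunits of the origin recognition complex, which marks the sites where DNA replication starts. All 5 lines were untreated, and each has 2 arrays titled as biological replicates, 10 arrays in all. The labels give neither the kind of mutation nor whether the replicates came from separate cultures, so the spread between them may be technical. KLF7 was chosen by its measured values, because it was among the genes most clearly lower in both ORC2 lines than in WT. Its levels and differences are therefore a description and carry no test.

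KLF proteins are transcription factors that bind GC-rich boxes and CACCC boxes in promoters through zinc fingers at their C-terminal end. Members differ in the partners they recruit. Some bind the CtBP or SIN3A co-repressors, while the group that holds KLF7 mostly activates transcription. KLF7 was first described as a widely expressed member of the family. In mice it is needed for the development of sensory neurons, and it also restrains the formation of fat cells. In the intestinal epithelium the best studied relatives are KLF5, which is active in dividing crypt cells, and KLF4, which is active in differentiated cells.

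The RefSeq table of promoter windows (GRCh38.p14, 250 bases before to 50 bases after each start) gives 4 windows for KLF7, all on the minus strand of chromosome 2. The probe-set value does not tell from which start the measured RNA came. Of the 4 windows, 1 holds the GC box GGGCGG and 3 hold CACCC, with both strands searched and no base shared by the 2 motifs. Of all 35116 windows of this length in the table, 45.0% hold GGGCGG and 59.9% hold CACCC. The window at chr2:207166807-207167106 has 70% G and C. It holds GGGCGG at 4 places and CACCC at 1 place. The window at chr2:207165899-207166198 has 56.7% G and C, and holds CACCC, read on the other strand as GGGTG, at 2 places and GGGCGG at 0 places. These 2 windows are shown because they hold more than 1 match to the boxes that proteins of this family bind, which are in capitals. A match is a run of letters and not a shown binding site.
KLF7, chr2:207166807-207167106: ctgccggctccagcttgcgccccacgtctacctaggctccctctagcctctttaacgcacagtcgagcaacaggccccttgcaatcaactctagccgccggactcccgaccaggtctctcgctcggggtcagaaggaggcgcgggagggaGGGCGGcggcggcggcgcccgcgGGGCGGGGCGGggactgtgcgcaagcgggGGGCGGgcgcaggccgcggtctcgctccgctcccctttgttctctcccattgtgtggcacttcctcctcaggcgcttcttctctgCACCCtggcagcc
KLF7, chr2:207165899-207166198: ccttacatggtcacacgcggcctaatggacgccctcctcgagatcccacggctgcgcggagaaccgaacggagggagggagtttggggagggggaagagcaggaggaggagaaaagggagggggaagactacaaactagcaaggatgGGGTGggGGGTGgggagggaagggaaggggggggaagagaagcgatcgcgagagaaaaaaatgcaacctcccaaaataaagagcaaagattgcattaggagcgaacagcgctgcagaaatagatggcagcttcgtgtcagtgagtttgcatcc

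KLF7 was lower in each of the 4 mutant lines than in WT. On the log2 scale of the deposited values, replicates 1 and 2 stood at 6.19 and 6.69 in ORC1B14 and at 6.36 and 6.69 in ORC1BP32, then at 6.20 and 5.42 in ORC2B2 and at 6.68 and 6.09 in ORC2BP8, against 8.03 and 7.78 in WT. The 8 mutant arrays thus lay between 5.42 and 6.69, with a median of 6.28, and did not overlap with the WT arrays. The lowest WT array was 1.09 above the highest mutant array. Of all genes tested, 6.93% had all 8 mutant arrays below both WT arrays. KLF7 was at or above the array median on all 10 arrays, so its lower values were not at the dim end of the scale.

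Line means were 6.44 ± 0.35 in ORC1B14, 6.53 ± 0.23 in ORC1BP32, 5.81 ± 0.55 in ORC2B2, 6.38 ± 0.42 in ORC2BP8 and 7.91 ± 0.18 in WT (SD, n = 2 each). The differences from WT were -1.47 in ORC1B14 and -1.38 in ORC1BP32, then -2.10 in ORC2B2 and -1.52 in ORC2BP8. KLF7 was thus 2.77-fold, 2.60-fold, 4.28-fold and 2.87-fold lower in these lines, in the same order. These 4 differences share the WT arrays, and WT is a single line. The mean of the 4 mutant lines minus WT was -1.62, a 3.07-fold difference. For comparison, 18 of 10797 genes tested, KLF7 included, had a difference of this size or lower, and the median of all genes was 0.04.

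In the order of levels WT stood apart at the top, followed by ORC1BP32, ORC1B14, ORC2BP8 and ORC2B2. The arrays of each neighbouring pair among the 4 mutant lines overlapped, so the order of neighbours is not resolved. At the ends of the order, the arrays of ORC1BP32 (6.36 and 6.69) lay above those of ORC2B2 (6.20 and 5.42). ORC1B14 minus ORC1BP32 was -0.09. ORC2BP8 minus ORC2B2 was 0.58, with 0.48 within replicate 1 and 0.67 within replicate 2. The pooled SD within lines was 0.37, larger than that of 87.6% of the genes tested, whose median was 0.22. KLF7 thus varied more between the arrays of a line than most genes.

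Taken within each replicate number, KLF7 was lower than WT in all 4 lines both times. The differences within replicate 1 were -1.84 in ORC1B14 and -1.67 in ORC1BP32, then -1.83 in ORC2B2 and -1.35 in ORC2BP8. Within replicate 2 they were -1.09, -1.09, -2.37 and -1.69 in the same order. The distance between ORC1 and ORC2 lines did not keep its sign. The mean of the ORC1 lines minus that of the ORC2 lines was 0.39 over all arrays, -0.16 within replicate 1 and 0.94 within replicate 2. KLF7 was higher on replicate 2 than on replicate 1 in both ORC1 lines, and lower on replicate 2 in both ORC2 lines and in WT.

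**Figure D1:**
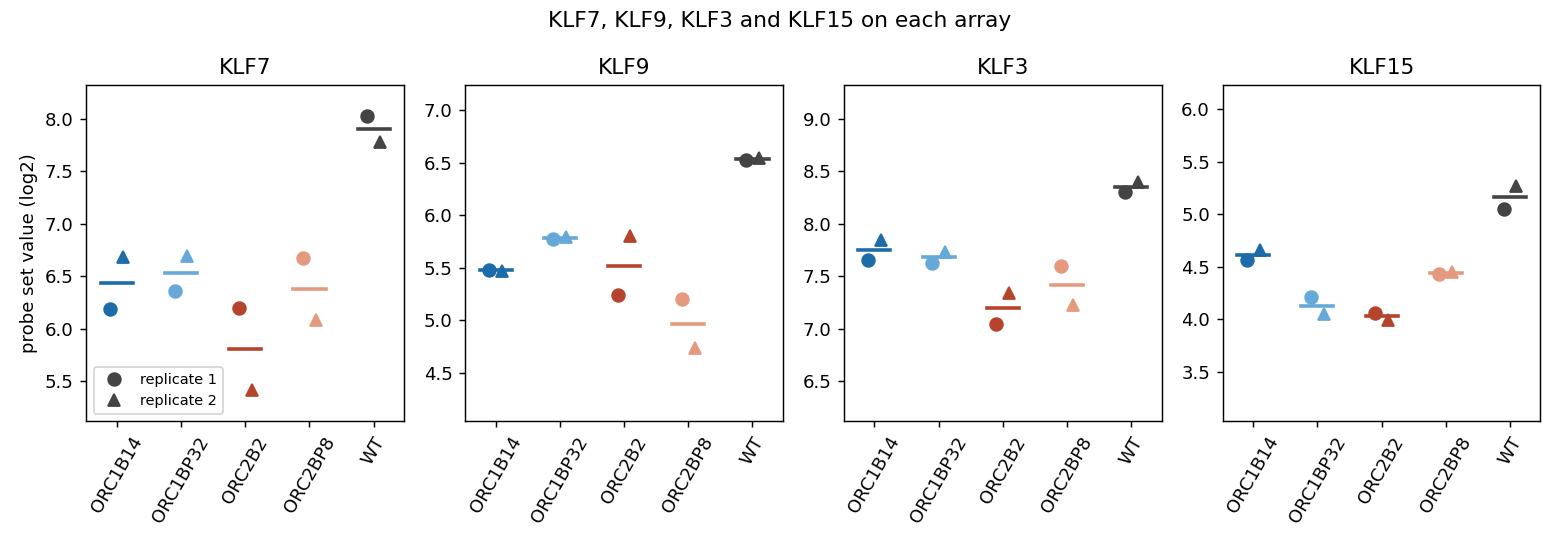
Probe set values (log2, y axis) of KLF7, KLF9, KLF3 and KLF15 on each array by line, with replicate 1 as circles, replicate 2 as triangles and the mean as a bar. Every panel spans the same number of log2 units. For each of the 4 genes the 8 mutant arrays lie below both WT arrays, for KLF7 at 5.42 to 6.69 against 7.78 and 8.03. The same holds for 6.93% of all genes tested.

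A microRNA gene, MIR2355, lies inside the KLF7 gene in the RefSeq table and has a probe set of its own, 16907639. It stayed below the array median on all arrays (0 of 10 at or above it), between 2.43 and 2.82. Line means ran from 2.47 in ORC2BP8 to 2.70 in ORC2B2 among the mutant lines, against 2.79 in WT. It was not tested because of its low values. A second microRNA gene inside KLF7, MIR7845, has no named probe set in the annotation used here.

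The other members of the family were then compared with WT. Of 16 other KLF genes with a named probe set, 15 passed the filter on dim values, and each was fitted with limma together with all 10797 genes tested. The SE and p of this fit rest on the spread between arrays within lines, and WT is a single line. They do not measure how far separately derived lines differ. KLF17 stayed below the median on all arrays, at 3.16 to 3.51 in the mutant lines and 3.01 to 3.30 in WT, and was not tested. In the mean of the 4 mutant lines 3 of the 15 fell and 0 rose (adjusted p under 0.05), while 0.602% of all genes fell and 0.417% rose by the same rule. These were KLF9, KLF15 and KLF3. With no adjustment, 6 of the 15 had p under 0.05, against 17.3% of all genes. The median difference of the 15 genes was -0.07, and that of all genes was 0.04.

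KLF9, a SIN3A-binding factor induced by glucocorticoids, stood at 5.48 and 5.47 in ORC1B14 and at 5.77 and 5.80 in ORC1BP32, then at 5.24 and 5.80 in ORC2B2 and at 5.21 and 4.73 in ORC2BP8, against 6.53 and 6.55 in WT. Every mutant array was below both WT arrays, as for 6.93% of all genes tested. KLF9 fell by 1.10 in the mean of the 4 lines (SE 0.18, limma adjusted p = 0.0264). By line the differences were -1.06 in ORC1B14 and -0.75 in ORC1BP32, then -1.02 in ORC2B2 and -1.57 in ORC2BP8, of which ORC2BP8 alone passed the threshold (limma adjusted p = 0.0128).

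KLF15, a regulator of amino acid and glucose metabolism, stood at 4.57 and 4.66 in ORC1B14 and at 4.21 and 4.05 in ORC1BP32, then at 4.06 and 3.996 in ORC2B2 and at 4.44 and 4.45 in ORC2BP8, against 5.06 and 5.27 in WT. No mutant array reached a WT array. KLF15 fell by 0.86 in the mean of the 4 lines (SE 0.14, limma adjusted p = 0.0245), and fell by 1.13 in ORC2B2 (limma adjusted p = 0.0323). Its values in ORC1BP32 and ORC2B2 lay just above the array medians of 3.87 to 3.96. How far that limits the size of its change was not tested.

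KLF3, a CtBP-binding repressor, stood at 7.66 and 7.85 in ORC1B14 and at 7.63 and 7.73 in ORC1BP32, then at 7.05 and 7.35 in ORC2B2 and at 7.60 and 7.23 in ORC2BP8, against 8.30 and 8.40 in WT. The groups again did not overlap. KLF3 fell by 0.84 in the mean of the 4 lines (SE 0.16, limma adjusted p = 0.0391), and fell by 1.16 in ORC2B2 (limma adjusted p = 0.0456).

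All 3 calls in the mean of the 4 lines were lost when either WT array was left out. WT was then 1 array, assumed to vary like the other lines, and the calls over all genes tested went down as well, to 20 without WT replicate 1 and 1 without WT replicate 2, against 110 with all arrays. Without WT replicate 1 the KLF calls were lost with adjusted p = 0.185 for KLF9, 0.0913 for KLF15 and 0.254 for KLF3, and without WT replicate 2 with 0.213, 0.227 and 0.264. KLF9 also lost its call without ORC1BP32 replicate 1 (0.0651) or 2 (0.0503), and KLF15 without ORC2B2 replicate 2 (0.0529). KLF3 kept its call without ORC1B14 replicate 2 or ORC2BP8 replicate 1, and lost it without each of the other 8 arrays. The differences themselves stayed between -1.17 and -1.03 for KLF9, -0.97 and -0.75 for KLF15, and -0.89 and -0.79 for KLF3 when any 1 of the 10 arrays was left out.

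Line by line, the family gave few calls. Of the 15 genes, 0 were called in ORC1B14 and 0 in ORC1BP32 by limma, 2 in ORC2B2 (KLF3 and KLF15) and 1 in ORC2BP8 (KLF9), all of them lower. Of all genes 0.583%, 0.0185%, 0.333% and 0.935% were called in these lines. At an unadjusted p under 0.05 the family counts were 6, 4, 6 and 5, against 17%, 10.1%, 11.7% and 14.6% of all genes. Both ORC2B2 calls were lost without replicate 1 or 2 of WT, ORC1BP32 or ORC2B2. Calls over all genes in ORC2B2 went down in each of these fits as well. The differences there stayed between -1.31 and -1.01 for KLF3 and between -1.24 and -1.03 for KLF15. Leaving out an ORC1BP32 array left both differences as they were, while the estimate of the spread and the set of genes tested changed. With the replicate number as a block, KLF9 also passed in ORC1B14 (limma adjusted p = 0.0314) and ORC2B2 (0.0444). KLF15 passed in ORC1BP32 (0.030) and ORC2BP8 (0.0465), and KLF3 in ORC2BP8 (0.0228), by the same limma fit. Over all genes that fit called 496 in ORC1B14 (63 without the block), 57 in ORC1BP32 (2), 251 in ORC2B2 (36) and 402 in ORC2BP8 (101). In the fit with no block, the KLF9 call in ORC2BP8 was lost without WT replicate 1 or 2 or ORC2BP8 replicate 2. The difference was then -1.58, -1.56 and -1.33. Without ORC2BP8 replicate 1, KLF3 was called there too, at -1.13. Calls over all genes in ORC2BP8 likewise went down in those 3 fits and up in this one.

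The members of the activating group, to which KLF7 belongs, gave 0 calls among the other 5 by limma, and 1 of 5 at an unadjusted p under 0.05, against 1.02% and 17.3% of all genes. KLF6, the closest relative of KLF7, stood at 0.17 against WT in the mean of the 4 lines (SE 0.25). KLF5 stood at -0.40, KLF2, known from resting endothelial and T cells, at -0.34, KLF4 at -0.26 and KLF1, the erythroid factor, at 0.13. In the CtBP-binding group KLF12 stood at -0.42 and KLF8 at -0.07. In the SIN3A-binding group KLF16 stood at 0.52, KLF11 at 0.48, KLF10 at 0.17, KLF14 at 0.09 and KLF13 at 0.06. None of these 12 genes passed the threshold in any line or in the mean of the 4 lines. With the replicate block KLF12 passed in ORC1B14 (limma adjusted p = 0.0419) and KLF5 in ORC2BP8 (0.0430). By that fit 496 of all genes passed in ORC1B14 and 402 in ORC2BP8, against 63 and 101 without the block. Several of the mean differences of the 12 genes turned with the WT array used. Without WT replicate 1 the mean differences were 0.62 for KLF6, 0.07 for KLF4 and 0.38 for KLF8, and without WT replicate 2 they were -0.28, -0.59 and -0.52. KLF2 stood at -0.62 and -0.06 in the same order, and KLF11 at 0.14 and 0.81. KLF1 and KLF14 also changed sign without WT replicate 2, at -0.01 and -0.03. KLF13 did so without ORC2B2 replicate 2, at -0.00496. KLF16 was the only tested member with all 8 mutant arrays above both WT arrays, at 6.44 to 7.14 against 6.17 and 6.40 (SE 0.19, limma adjusted p = 0.186). Of the 15 other genes 3 had all mutant arrays below both WT arrays, and 1 had them above, where 6.93% and 7.96% of all genes did.

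**Figure D2:**
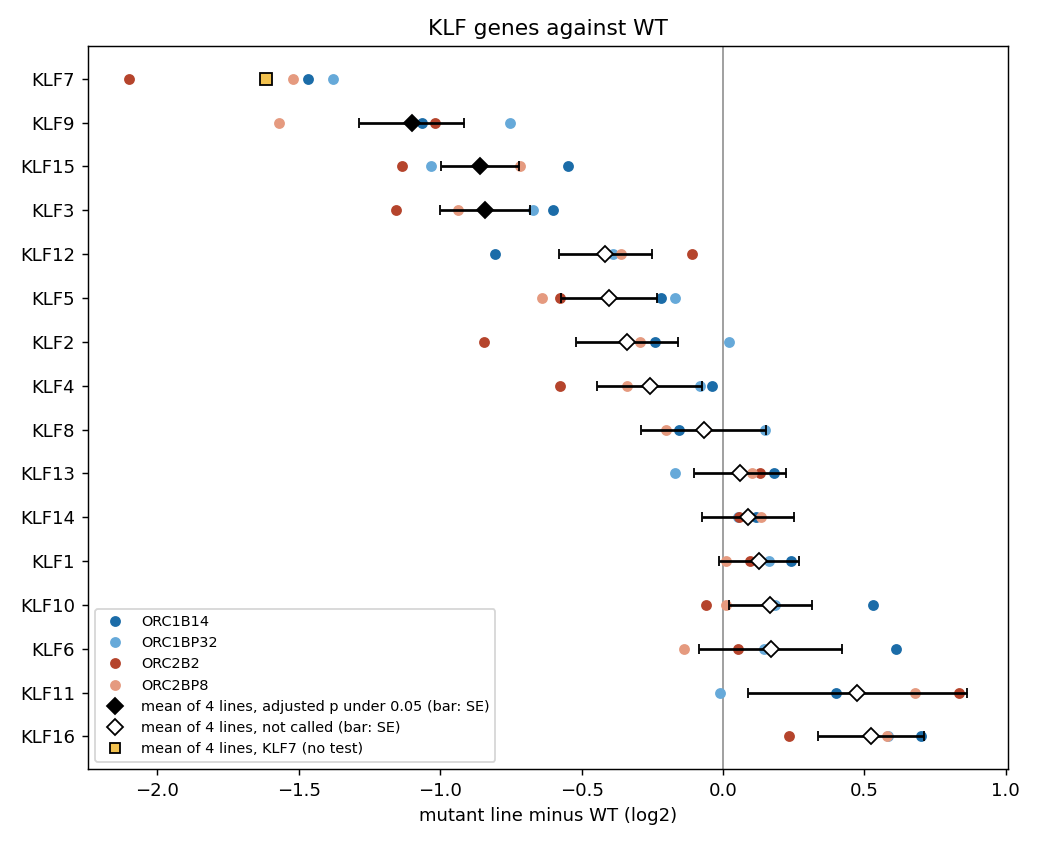
Difference from WT (log2, x axis) of KLF7 and the 15 other tested KLF genes, with 1 coloured point per mutant line and the mean of the 4 lines as a black marker with its SE, filled where the limma adjusted p is under 0.05. KLF7, with no test and no bar, lies at -1.62, and KLF9, KLF15 and KLF3 at -1.10, -0.86 and -0.84 are the filled ones.

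Both ORC1 lines together were set against both ORC2 lines to see whether KLF genes differ by the mutated gene. Of the 15 other KLF genes 0 passed the limma threshold, which 0.0463% of all genes passed. At an unadjusted p under 0.05 there were 7 of 15, against 6.96% of all genes. By that weaker rule, KLF2 (0.46), KLF5 (0.41), KLF3 (0.41), KLF4 (0.40), KLF9 (0.38) and KLF10 (0.38) had higher values in the ORC1 lines and KLF12 (-0.36) lower ones, with SE from 0.13 to 0.17 and adjusted p from 0.525 to 0.684. KLF7, chosen for low values in the ORC2 lines, had 0.39 in the same comparison, with -0.16 within replicate 1 and 0.94 within replicate 2. None of the 7 passed after adjustment over all genes.

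The SP factors share the zinc finger type of the KLF proteins. Of 9 SP genes, 7 were tested and 0 were called by limma in the mean of the 4 lines, with 1 at an unadjusted p under 0.05, where 1.02% and 17.3% of all genes were. That gene was SP5, a WNT-induced repressor, named after its values were seen, which stood at 0.49 (SE 0.18, adjusted p = 0.198). SP1, the common activator of GC-box promoters, stood at -0.07 and SP3 at 0.13. The median of the 7 was 0.08.

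Genes of proteins that work with or act on KLF factors came next. Of 14 such genes, among them the co-repressors CTBP1, CTBP2 and SIN3A, the acetyltransferases EP300 and CREBBP and the ubiquitin ligase WWP1, 13 were tested and 0 were called (0 also at an unadjusted p under 0.05, limma). Of all genes 1.02% and 17.3% met these rules. Their median was 0.02, and all genes had 0.04. Of 15 genes listed as KLF7 targets or cofactors, mostly from work in mice, 7 were named and 5 tested, with 0 called (0 at an unadjusted p under 0.05), against the same 1.02% and 17.3%. With 5 genes, counts of 0 are near that background. FBXO38, known in mice as a coactivator of KLF7, stood at -0.33 (SE 0.19), the neural adhesion gene L1CAM at 0.42 (SE 0.23) and the growth-cone gene GAP43 at -0.08 (SE 0.19). The remaining 2 tested genes, named after their values were seen, differed between lines. PPARG, the fat cell regulator, stood at 0.24 in ORC1B14 and 0.67 in ORC1BP32, then -0.46 in ORC2B2 and -0.37 in ORC2BP8, and NRP1, a semaphorin co-receptor, at -0.18, 0.55, 0.54 and -0.99 in the same order. Of the 5 genes 1 had an unadjusted p under 0.05 in ORC1BP32, 1 in ORC2BP8 and 1 between ORC1 and ORC2 lines, where 10.1%, 14.6% and 6.96% of all genes did. The genes of this list that were not named are not analysed here.

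Genes beside KLF7 on chromosome 2 had differences from WT scattered around 0. Among the 10 nearest tested genes on each side, 0 of 20 were called by limma in the mean of the 4 lines, where 1.02% of all genes were. At an unadjusted p under 0.05 there were 2 of 20, against 17.3% of all genes. The median of the 20 neighbours was -0.02, with 11 of 20 below 0. The closest gene on one side, CREB1, the cAMP-responsive transcription factor, stood at -0.24, and METTL21A, CCNYL1, FZD5 and LOC100507443 beyond it at -0.09, 0.11, 0.15 and -0.15. On the other side MIR3130-1, FASTKD2, GCSHP3, INO80D and PARD3B stood at 0.14, -0.03, 0.04, -0.20 and 0.03. By line the medians of the 20 were -0.14 in ORC1B14 and -0.01 in ORC1BP32, then 0.08 in ORC2B2 and 0.04 in ORC2BP8. The 1 call among them in any line was MAP2, a neuronal microtubule protein gene, at -1.24 in ORC2BP8, where 0.935% of all genes were called. MAP2 was below WT in the other mutant lines too, at -0.68 in ORC1B14, -0.66 in ORC1BP32 and -0.44 in ORC2B2. It was named after its values were seen.

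**Figure D3:**
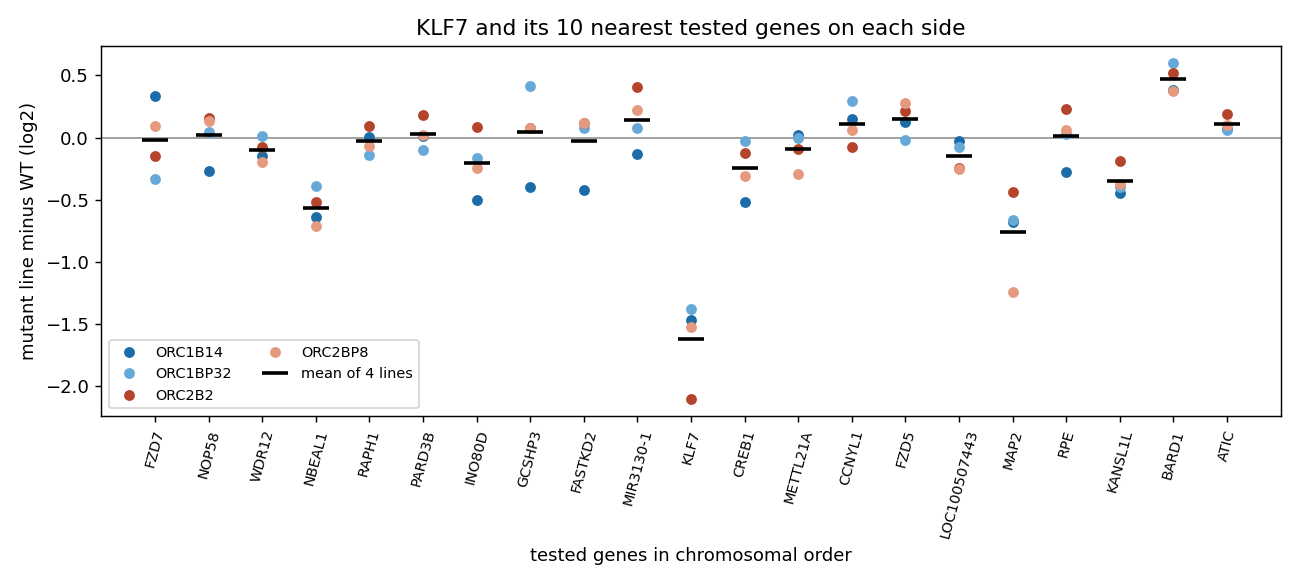
Difference from WT (log2, y axis) of KLF7 and the 10 nearest tested genes on each side in chromosomal order, with 1 coloured point per mutant line and the mean of the 4 lines as a black bar. KLF7 lies at -1.62 between neighbours whose means run from -0.76 (MAP2) to 0.47 (BARD1).

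The genes most like KLF7 were sought by Pearson correlation over the 10 arrays, among 656 tested genes whose line means spanned at least 1 log2 unit. The measure is a description, since the arrays fall into a WT pair and 8 mutant arrays and any gene with a high or low WT pair scores well. The 8 nearest were ADGRF1, an adhesion G protein-coupled receptor (r = 0.912), CCDC18-AS1 (0.901), SAMD12 (0.899), TCP11L2 (0.898), the Schlafen gene SLFN5 (0.880), MIR548I2 (0.878), KLF3 (0.878) and PPP3CA-DT (0.877). Within the 8 mutant arrays alone their correlations with KLF7 were 0.51 to 0.66. SAMD12 was at or above the array median on 1 of 8 mutant arrays and 2 of 2 WT arrays, so it passed the filter on dim values mainly through WT, where it is high. The other 7 were at or above it on all 10 arrays. Only 2 of the 656 genes reached 0.9 or more.

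These names depend on the measure. Of the 8, 1 remained among the first 8 by Spearman correlation, 0 by the correlation of the 5 line means and 5 after the mean of each replicate number was taken off. KLF3 ranked 7 of 656 by the first measure, 24.5 by Spearman correlation, 14 by line means, 11 with the replicate means taken off and 32 within the 8 mutant arrays. The other called members of the family followed KLF7 less closely by rank, KLF15 at 38 (r = 0.83) and KLF9 at 149 (r = 0.69). Within the mutant arrays KLF3 had r = 0.60, KLF15 0.41 and KLF9 -0.06, and KLF11, the lowest of the family there, -0.70. These values rest on 8 arrays of 4 lines, and both genes of a pair share each array.

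The most opposite genes were BCL2L12, a regulator of apoptosis (r = -0.94), MEA1 (-0.90), NAA38, a subunit of an N-terminal acetyltransferase (-0.89), and CDC6, which loads the MCM helicase at origins (-0.88). Their mean differences from WT over the 4 lines were 0.96, 0.93, 0.87 and 0.98, opposite in sign to KLF7. Among the 8 like genes the mean differences ran from -2.56 for ADGRF1 to -0.84 for KLF3.

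**Figure D4:**
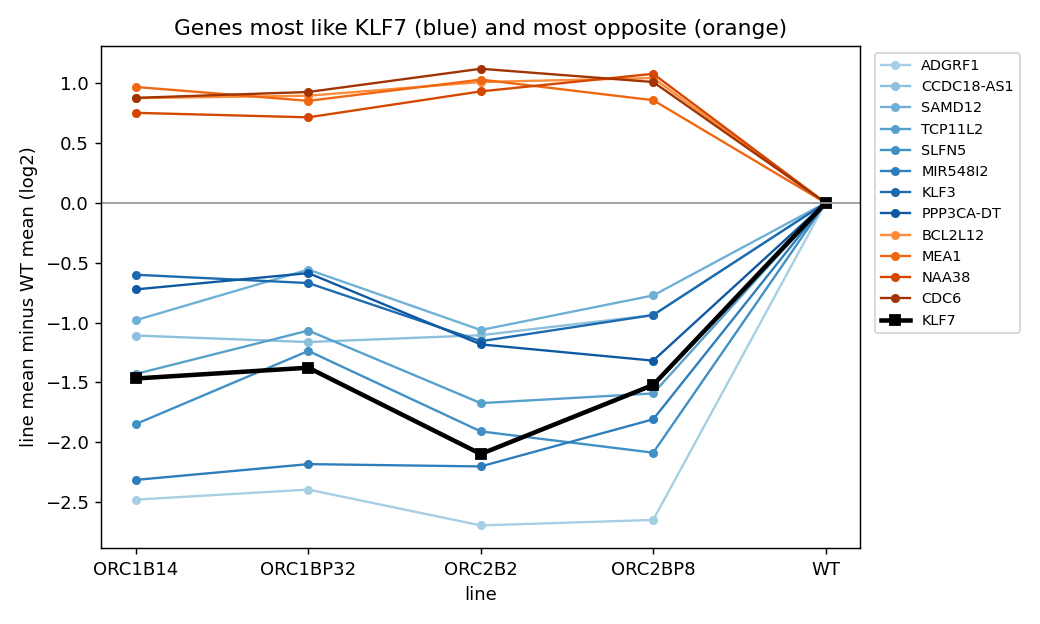
Line mean minus WT mean (log2, y axis) in each mutant line and WT for KLF7 (black), the 8 genes most like it (blue) and the 4 most opposite (orange). The blue lines lie below 0 in every mutant line and the orange ones above 0, with CDC6 at 0.88 to 1.12.

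The array set as a whole had medians of 3.87 to 3.96. The replicate sets stood apart in this, since the lowest median of a replicate 1 array was 3.94 and the highest of a replicate 2 array 3.89. The part of this offset in the results was not tested beyond centring and the replicate block. No pair of arrays was identical (0 pairs). Epithelial markers were at or above the array median on all arrays for 7 of 7 named genes, EPCAM among them. The same held for 1 of 3 named fibroblast markers (THY1) and 1 of 2 named blood markers (CD68). ORC1 and ORC2 are not analysed here, so the labels were not checked against the mutated genes. Precision is limited throughout by having 2 arrays per line and a single WT line.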

How the data were processed

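RNA of 5 HCT116 lines was hybridised to Affymetrix arrays, 2 per line. The authors deposited 1 log2 value per probe set and array. Affymetrix Expression Console was used, per the submitters' processing notes. The normalization is not given in the sources used here. The log base was read from the values (1.45 to 13.7), and they were used without further scaling. Probe sets were named through the platform annotation (16098 with 1 symbol, 0 with several, 37519 unnamed), and all 16098 matched RefSeq by gene ID.

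A probe set was kept when at or above the array median on at least 2 arrays. For 421 genes with several the highest mean was used, leaving 10797 genes. limma 3.58.1 in R 4.3.3 was fitted to 5 line means over all 10 arrays, with eBayes and an intensity trend (5 residual and 5.83 prior degrees of freedom). Tests were two-sided, p-values were adjusted over all genes by Benjamini-Hochberg, and the threshold was 0.05. The fit was tested on simulated data with independent noise on each array and changes planted in ORC2B2 alone. That simulation held no offset shared by arrays of a replicate number. Alternatives were quantile normalization, centring, other filters, probe-set means, no trend, a replicate block and each array left out.

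KLF7, the gene lists and the tests were chosen with earlier results of these data known. Named were KLF7, all KLF genes, called members of the other lists with some fixed targets, the 5 nearest neighbours on each side, and the 8 most like and 4 most opposite genes.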

Additional observations from a re-analysis of the deposited data

How the results depend on the processing

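KLF7 stayed below WT in each mutant line after quantile normalization and centring. The replicate block leaves the line differences as they are, since each line has 1 array of each number. No mutant array reached a WT array for KLF7, so leaving out 1 array could not turn a difference from WT. The other filters, probe-set means and the fit with no trend leave the value of a gene with 1 probe set as it is. With any 1 of the 10 arrays left out, its difference ran from -1.72 to -1.22 in ORC1B14, -1.54 to -1.21 in ORC1BP32, -2.49 to -1.71 in ORC2B2, -1.82 to -1.23 in ORC2BP8 and -1.74 to -1.49 in the mean of the 4 lines, and ORC1 minus ORC2 lines from 0.19 to 0.58. Quantile normalization gave a mean of -1.57 and centring -1.61. The replicate number just missed the rule used for pairing the samples. Deviations from line means correlated over 0.1 for 9 of 10 line pairs and not for all of them (0.08 to 0.57). Every one was above 0, so arrays of the same number tended to deviate from their line means in the same direction. With 2 arrays per line the deviations of replicates 1 and 2 are opposite by construction, so this is 1 result and not 2. It is seen in the data and not given by the design. Over all probe sets, arrays correlated at 0.979 to 0.984 within a line and at 0.968 to 0.989 between lines. Limma results given without the block do not account for the replicate number. With the replicate block KLF7 stayed at -1.62, as it must with 1 array of each number per line. With that block the other KLF genes called were 2 in ORC1B14, 1 in ORC1BP32, 4 in ORC2BP8 and 3 in the mean of the 4 lines, 1 neighbour of KLF7 was called, and the count over all genes was 709 in the mean of the 4 lines (110 without the block), 496 in ORC1B14 (63), 57 in ORC1BP32 (2), 251 in ORC2B2 (36), 402 in ORC2BP8 (101) and 58 between ORC1 and ORC2 lines (5). In ORC2B2 the 2 KLF calls became 1 after centring and 1 with no filter on dim probe sets, where KLF3 lost its call (adjusted p = 0.0779 and 0.0590). After centring KLF3 also lost its call in the mean of the 4 lines (adjusted p = 0.0627), where 63 of all genes were called, against 204 after quantile normalization. Centring left 32 calls over all genes in ORC1B14 and 58 in ORC2BP8, no filter left 27 in ORC1B14 and 22 in ORC2B2, and requiring all arrays at or above the median left 3 between ORC1 and ORC2 lines. In ORC1BP32 limma called 0 genes after centring, with no filter and after quantile normalization, where 960, 1275 and 1197 genes had an unadjusted p under 0.05. With 1 array left out, KLF calls ran from 0 to 2 in ORC2B2, 0 to 2 in ORC2BP8 and 0 to 3 in the mean of the 4 lines, where all genes called ran from 1 without WT replicate 2 to 267 without ORC2BP8 replicate 1. Of the 8 genes most like KLF7, 1 was shared by Spearman correlation, 0 by line means and 5 after the replicate means were taken off. The cause of these changes was not tested.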
